A study of Mus musculus with 12 samples.

Results

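The pericentral Wnt target genes are a group of 9 genes, Glul, Axin2, Lgr5, Tbx3, Rnf43, Znrf3, Slc1a2, Rhbg and Lect2, which were picked by name from the 55385 features of a liver RNA-Seq table. They were followed in the livers of 12 male C57BL/6 mice that received adenovirus at 7 weeks of age and were killed on day 7. Control mice (Ad-Ctrl, n = 4) received Lac virus with the empty pAdV5 virus. Knockdown mice (Ad-shmGULL, n = 4) received an shRNA virus against mGULL, a mouse liver long noncoding RNA, with pAdV5. Rescue mice (Ad-shmGULL+hGULL, n = 4) received the same shRNA virus with a virus expressing the human lncRNA hGULL. The total of active viral particles is given as 500000000 for each group, without saying whether this is per mouse, and adenovirus was shared by all groups, the controls included. The labels and the methods of this experiment name the route as intravitreal, whereas the general methods describe retro-orbital delivery of adenovirus. Which of the shRNAs designed against mGULL was used was not found in the sources used here, and the mGULL level was not analysed here.

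Liver lobules are divided into zones along the path of blood from the portal tract to the central vein. Endothelial cells of the central vein release Wnt ligands and R-spondin, which stabilise β-catenin in neighbouring hepatocytes and so switch on a pericentral gene programme. Some targets carry out zone functions, such as glutamine synthesis, whereas others feed back on the pathway.

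The 9 genes can be grouped by role. Glul encodes glutamine synthetase, Slc1a2 the glutamate transporter GLT-1, Rhbg an ammonium transporter and Lect2 a secreted hepatokine. Axin2 is a scaffold of the complex that degrades β-catenin, and Rnf43 and Znrf3 are membrane ubiquitin ligases that remove Frizzled receptors. Lgr5 is a receptor for R-spondins, and Tbx3 is a T-box transcriptional repressor. In the GRCm38.p6 annotation all 9 are protein coding. Glul lies at chr1:153899929-153909723, Slc1a2 at chr2:102658239-102790784, Rhbg at chr3:88242874-88254739 and Lect2 at chr13:56529734-56548559. Axin2 lies at chr11:108917828-108950783, Rnf43 at chr11:87663087-87735539, Znrf3 at chr11:5276329-5444847, Lgr5 at chr10:115450314-115587780 and Tbx3 at chr5:119670534-119684724.

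RefSeq promoter windows on GRCm38.p6, running from 250 bases before to 50 bases after a start site, were at hand for 5 of the 9 genes (Glul, Slc1a2, Rnf43, Axin2 and Lect2), with 6 windows in all because Rnf43 had a pair. They were searched on both strands for the exact letters CTTTGAT, a form of the TCF/LEF motif through which TCF factors bring β-catenin to DNA. Other forms of that motif were not searched for, so a window without a match may still hold them. The motif was found in 2 of the 6 windows, those of Slc1a2 and Lect2, and in 3.73% of all 32851 promoter windows of this length. The RefSeq windows used here for Slc1a2, for Axin2 and for 1 of the Rnf43 pair lie wholly inside the annotated gene. A match describes letters only and is no measure of binding. Both matches are shown with their flanks, 5′ to 3′ on the strand of the gene. Whether they bear on the expression described below was not tested. The capitals are the motif read on the opposite strand, 207 to 201 bases before the Slc1a2 start (chr2:102706220-102706248, plus strand) and 32 to 26 bases before the Lect2 start (chr13:56548553-56548581, minus strand).
Slc1a2: agaagagggacATCAAAGgccccaaatgg
Lect2: tgcttctccagATCAAAGgctttggccgg

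Expression was given as TPM, transcript abundance corrected for length and scaled to sum to 1000000 in each mouse, so the read depth behind each value is unknown. The labelled tissue was checked with hepatocyte markers, whose summed level ran from 68660 to 109500 TPM over the 12 mice. The labels do not say more about the replicates than that they are separate samples, and p-values measure the spread between these samples. The 20 highest features took 29.4% to 32.9% of all TPM in Ad-Ctrl, 26.3% to 34.2% in Ad-shmGULL and 24.7% to 26.6% in rescue mice. All 37 mitochondrial features were listed at 0. In a whole-liver sample, fewer cells of a type and less RNA per cell cannot be told apart.

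All 9 genes had a mean of at least 1 TPM and were tested. Their levels spanned a range of 318-fold, from Glul at 781 TPM over the 12 mice, exceeded by 139 features, to Lgr5 at 2.46 TPM. The order below Glul was Lect2 at 120 TPM, Slc1a2 at 65.7, Tbx3 at 21.5, Rnf43 at 14.7, Znrf3 at 12.9, Axin2 at 5.73 and Rhbg at 4.29. In Ad-Ctrl livers the neighbours Tbx3 and Rnf43 overlapped between mice, as did Axin2 and Rhbg. The other neighbours in that order did not overlap within Ad-Ctrl.

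**Figure D1:**
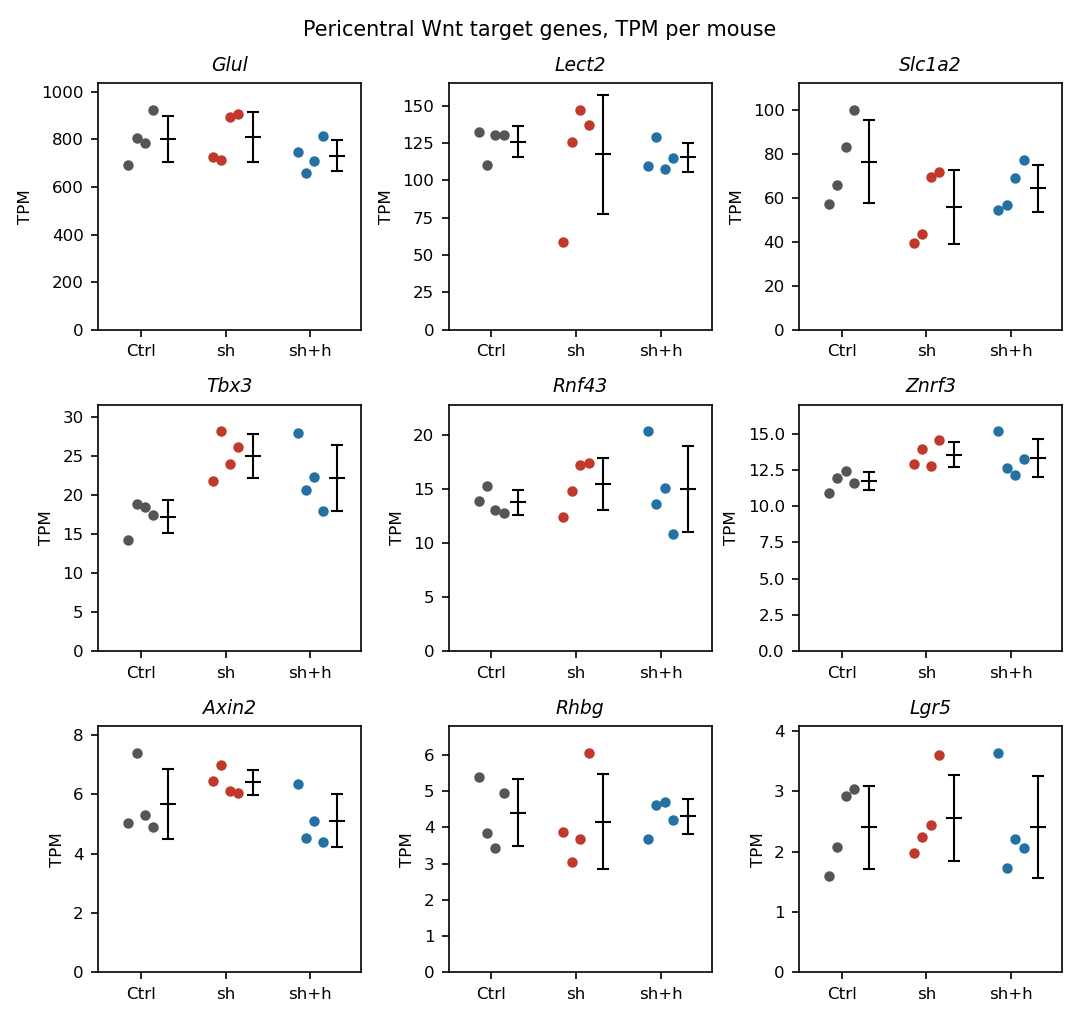
TPM of the 9 pericentral Wnt target genes in each mouse, with a linear axis from 0 in every panel. Points are single mice in replicate order (Ctrl for Ad-Ctrl, sh for Ad-shmGULL, sh+h for the rescue group), and the bar beside them is the mean ± SD (n = 4). Tbx3 and Znrf3 were higher in all 4 Ad-shmGULL mice than in any Ad-Ctrl mouse, and Lect2 was at 59.1 TPM in a single Ad-shmGULL mouse.

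The first comparison asked which of these genes differed after mGULL knockdown. Tbx3 and Znrf3 were higher in every knockdown liver than in any control liver, Slc1a2 values lay lower on average with overlap between the groups, and Glul was at almost the same level. None of the 9 genes passed an adjusted p of 0.05 in limma, against 3.23% of the 16378 tested genes. The threshold the study states asks for an unadjusted P under 0.05 and a log2 fold change larger than 0.5 in size. By it 1 of the 9 was called (Tbx3, higher), beside 7.65% of all tested genes. An unadjusted P under 0.05 alone was reached by 2 of the 9, Tbx3 and Znrf3, beside 20.2% of tested genes. The same 2 had no overlap between the 4 knockdown and the 4 control mice, as did 8.99% of tested genes. Counts of 1 or 2 among 9 genes are therefore not read as particular to the group.

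Tbx3 measured 14.2, 18.9, 18.5 and 17.4 TPM in the 4 Ad-Ctrl mice and 21.8, 28.2, 24.0 and 26.2 TPM in the 4 Ad-shmGULL mice. The lowest knockdown value therefore stood above the highest control value. The fold change was 1.43 (95% interval 1.17 to 1.75; log2 fold change 0.52, SE 0.13, on log2(TPM + 1)), with a limma adjusted p of 0.0562 over all tested genes. A two-sided permutation test on mean TPM, run exactly, gave p = 0.0286, the smallest that 4 against 4 mice allow. Over the alternatives the adjusted p in limma ran from 0.0411, when the test was limited to genes averaging 5 TPM or more, to 0.138, without knockdown mouse 2, and was under 0.05 in that first setting and without rescue mouse 1 (0.0448) alone. The fold and P call was lost with median-of-ratios scaling, where the log2 fold change was 0.42 (limma adjusted p = 0.0973), and without control mouse 1 (0.43), knockdown mouse 2 (0.46) or knockdown mouse 4 (0.49).

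Znrf3 measured 10.9, 11.95, 12.5 and 11.6 TPM in Ad-Ctrl and 12.9, 14.0, 12.8 and 14.6 TPM in Ad-shmGULL. These groups did not overlap either, although the nearest values, 12.5 and 12.8 TPM, were close. Its log2 fold change was 0.19 (SE 0.09, 95% interval 0.00 to 0.38), with a limma adjusted p of 0.243 and an exact permutation p of 0.0286. After median-of-ratios scaling, which sets the typical gene level equal between mice, the log2 fold change was 0.10 with an unadjusted limma P of 0.300.

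Rnf43, the partner ligase of Znrf3, measured 13.9, 15.3, 13.0 and 12.8 TPM in Ad-Ctrl and 12.4, 14.8, 17.2 and 17.4 TPM in Ad-shmGULL. Its groups overlapped, with both the lowest and the highest of these values in knockdown livers. Knockdown differed from control by a log2 fold change of 0.15 (95% interval -0.20 to 0.50, limma adjusted p = 0.658).

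Axin2, widely used as a readout of β-catenin activity, measured 5.04, 7.41, 5.32 and 4.90 TPM in Ad-Ctrl and 6.46, 6.98, 6.12 and 6.05 TPM in Ad-shmGULL. Control mouse 2 was the highest of these 8 mice, and the other 3 controls lay below all knockdown mice. Its log2 fold change was 0.16 (95% interval -0.13 to 0.46, limma adjusted p = 0.547, exact permutation p = 0.286).

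Lgr5 was the least abundant member, at 1.60, 2.07, 2.91 and 3.03 TPM in Ad-Ctrl and 1.97, 2.25, 2.43 and 3.59 TPM in Ad-shmGULL. The ranges of the groups nearly coincided. Its log2 fold change was 0.07 (95% interval -0.38 to 0.52, limma adjusted p = 0.895), an interval wide enough to hold Tbx3-sized changes, although the estimate lay near 0.

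Glul, the classic marker of the innermost pericentral hepatocytes, measured 691, 804, 784 and 924 TPM in Ad-Ctrl and 725, 715, 896 and 907 TPM in Ad-shmGULL. The means were 801 ± 95.7 and 811 ± 105 TPM (SD, n = 4). The log2 fold change was 0.02 (SE 0.12, 95% interval -0.24 to 0.27, limma adjusted p = 0.959), with both bounds inside the stated fold threshold. Its sign depended on scaling and became -0.09 with median-of-ratios scaling.

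Slc1a2, which like Glul acts on glutamate, measured 57.1, 66.1, 83.0 and 100.1 TPM in Ad-Ctrl and 39.5, 43.5, 69.3 and 71.8 TPM in Ad-shmGULL. Knockdown mice 1 and 2 lay below all controls, whereas knockdown mice 3 and 4 lay among them. On the log2 scale the change was -0.46 (SE 0.22, 95% interval -0.93 to 0.01), with an unadjusted limma P of 0.0547, an adjusted p of 0.259 and an exact permutation p of 0.200. With median-of-ratios scaling it was -0.56 with an unadjusted limma P of 0.0334 and an adjusted p of 0.203, so that by fold and P Slc1a2 was called in place of Tbx3. The same exchange took place without control mouse 1 (-0.59) or knockdown mouse 4 (-0.60), and both genes were called without knockdown mouse 3 (-0.58 for Slc1a2).

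Rhbg measured 5.40, 3.85, 3.42 and 4.94 TPM in Ad-Ctrl and 3.86, 3.04, 3.67 and 6.07 TPM in Ad-shmGULL. Knockdown livers held the lowest and the highest of these values, and the log2 fold change was -0.08 (95% interval -0.47 to 0.30, limma adjusted p = 0.843). Lect2 measured 132, 110, 131 and 131 TPM in Ad-Ctrl and 59.1, 126, 147 and 137 TPM in Ad-shmGULL. Knockdown mouse 1 stood far below the other 7 mice. The log2 fold change of Lect2 was -0.18 (95% interval -0.67 to 0.31, limma adjusted p = 0.711), and it turned to 0.12 without that mouse.

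**Figure D2:**
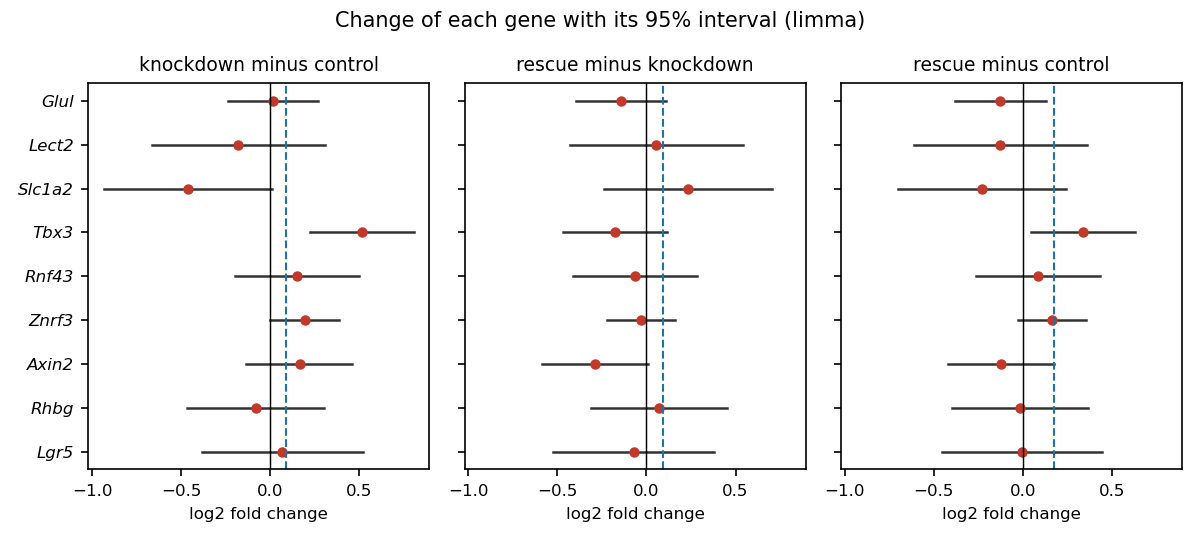
log2 fold change of each gene on log2(TPM + 1) in the 3 comparisons, ordered by mean level from top to bottom. Points are limma estimates, lines are 95% intervals, the solid vertical line marks 0 and the dashed line marks the median of all 16378 tested genes (0.09, 0.09 and 0.17 from left to right). The interval of Tbx3 lay above 0 in both comparisons with control, and that of Znrf3 just above 0 in knockdown against control.

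The direction of the small changes has to be read against a shift of all genes. The median log2 fold change after knockdown was 0.07 for the 9 genes and 0.09 for all tested genes, with 6 of 9 members above 0 and 10731 of 16378 genes above 0. With median-of-ratios scaling the medians were -0.01 and -0.00, with 4 of 9 members and 8082 of 16347 genes above 0. Tbx3, Znrf3, Rnf43 and Axin2 stayed above 0 under both scalings, and Slc1a2, Rhbg and Lect2 stayed below.

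The second comparison asked whether the levels moved when hGULL was added to the knockdown. No member passed an adjusted p of 0.05, and neither did any other gene (0% of 16378), whereas 10.7% of tested genes had an unadjusted limma P under 0.05. None of the 9 members reached that unadjusted P. None reached the stated fold and P threshold, beside 3% of tested genes, and none had non-overlapping groups, beside 6.38%. The median log2 fold change was -0.06 for the 9 genes and 0.09 for all tested genes. Below 0 were 6 of 9 members and 4763 of 16378 genes. With median-of-ratios scaling the medians were -0.14 and 0.01, with 8 of 9 members and 7925 of 16347 genes below 0.

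Tbx3 measured 28.0, 20.6, 22.3 and 18.0 TPM in rescue livers. Rescue mouse 1 lay close to the highest knockdown mouse, whereas rescue mouse 4 lay among the controls. The log2 fold change from knockdown was -0.18 (95% interval -0.47 to 0.11, limma adjusted p = 0.630). Znrf3 measured 15.2, 12.6, 12.2 and 13.2 TPM in rescue livers, with a log2 fold change of -0.03 from knockdown (95% interval -0.22 to 0.16, limma adjusted p = 0.917). For neither gene was a return toward control larger than the spread between mice.

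Axin2 had the largest negative estimate of the 9 in this comparison. It measured 6.37, 4.54, 5.12 and 4.41 TPM in rescue livers, of which 3 lay below all knockdown livers. The log2 fold change was -0.29 (SE 0.14, 95% interval -0.58 to 0.01), with an unadjusted limma P of 0.0575, an adjusted p of 0.474 and an exact permutation p of 0.0857. With median-of-ratios scaling it was -0.37, with an unadjusted limma P of 0.0272 and an adjusted p of 0.529.

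Slc1a2 measured 54.7, 56.7, 68.9 and 77.1 TPM in rescue livers, with a mean of 64.4 TPM that lay between those of the other groups. Its log2 fold change from knockdown was 0.23 (95% interval -0.24 to 0.70, limma adjusted p = 0.693). Glul measured 745, 657, 709 and 816 TPM, with a log2 fold change of -0.14 (95% interval -0.40 to 0.11, limma adjusted p = 0.652). The estimates of this glutamate-handling pair had opposite signs, each within the spread between mice.

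The remaining 4 genes differed little on average. Rnf43 measured 20.3, 13.6, 15.1 and 10.8 TPM in rescue livers and had the widest scatter of any group for this gene. Lgr5 measured 3.64, 1.73, 2.21 and 2.06 TPM, and Rhbg 3.68, 4.63, 4.72 and 4.21 TPM. Mouse 1 was the highest of the rescue group for Tbx3, Rnf43, Znrf3, Axin2 and Lgr5 and the lowest for Rhbg and Slc1a2. Lect2 measured 109, 129, 108 and 115 TPM, and its log2 fold change from knockdown, 0.05 with all mice, was -0.24 without knockdown mouse 1. The limma adjusted p values of these 4 genes in rescue against knockdown lay between 0.897 and 0.936.

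The third comparison set rescue livers against controls and shares its control mice with the first. No member passed an adjusted p of 0.05 in limma, beside 2.15% of tested genes, and none met the stated fold and P threshold, beside 7.49%. An unadjusted P under 0.05 was reached by Tbx3 alone among the 9, whereas 25.3% of tested genes reached it. No member had non-overlapping groups, beside 22.3% of tested genes. Tbx3 was 1.26-fold higher than in controls (95% interval 1.03 to 1.55), with a limma adjusted p of 0.148 and an exact permutation p of 0.0857, and 3 of the 4 rescue mice lay above all controls. With median-of-ratios scaling its log2 fold change decreased from 0.34 to 0.15. Znrf3 was also above all controls in 3 of 4 rescue mice, with a log2 fold change of 0.16 (95% interval -0.03 to 0.36, limma adjusted p = 0.258) that turned to -0.02 under that scaling. The log2 fold changes of the other 7 genes ran from -0.23 for Slc1a2 to 0.09 for Rnf43. The median of the 9 was -0.01 and that of all tested genes 0.17, or -0.18 and -0.00 with median-of-ratios scaling. Under that scaling 8 of 9 members and 8296 of 16347 genes lay below 0. Glul then had a log2 fold change of -0.33, with an unadjusted limma P of 0.0397 and an adjusted p of 0.334.

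The 9 genes did not vary as a single unit from mouse to mouse. Across the 12 mice on log2(TPM + 1), Tbx3 and Znrf3 were the pair of members most alike, with Pearson r = 0.86 and Spearman rho = 0.76. Znrf3 ranked 25 of 16377 genes by its likeness to Tbx3, and r was 0.79 without the 2 mice farthest from the Tbx3 median. When each group was centred on its own mean, r for this pair fell to 0.725. Glul and Slc1a2 had r = 0.67 (rho = 0.68), which rose to 0.89 with the same centring, and Lgr5 and Znrf3 then had r = 0.78. That last value rested on few mice, since it was 0.51 without the 2 mice farthest from the centred Lgr5 median. Without centring, r for Lgr5 and Znrf3 was 0.60, or 0.095 without the 2 mice farthest from the Lgr5 median. In the 2 knockdown livers with the lowest Slc1a2 values, Glul was also at its lowest for that group. These correlations describe 12 mice that share treatment groups and a common TPM scale.

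**Figure D3:**
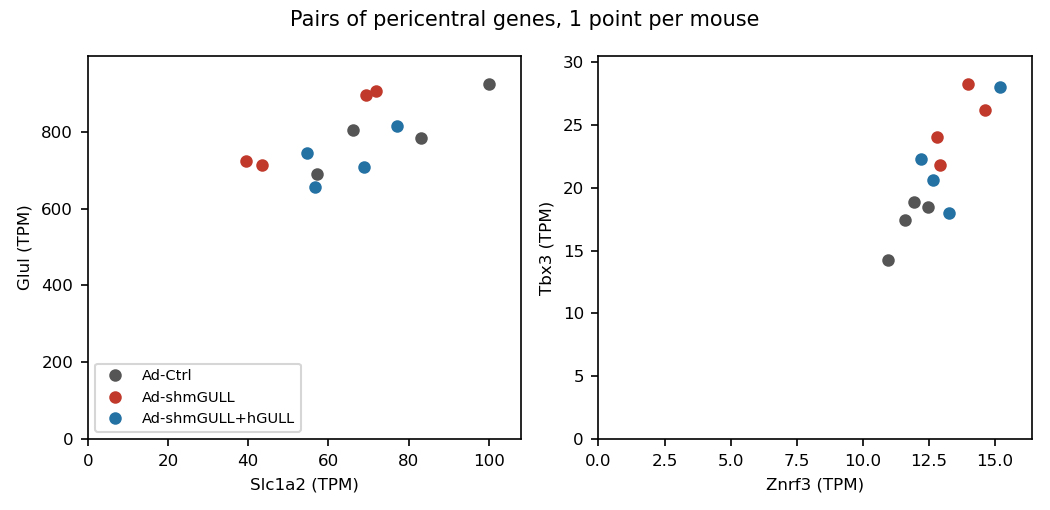
Levels in TPM of Slc1a2 against Glul (left) and Znrf3 against Tbx3 (right), with linear axes from 0 and 1 point per mouse coloured by group. In the left panel the knockdown mice form 2 pairs, at 39.5 and 43.5 TPM and at 69.3 and 71.8 TPM of Slc1a2. In the right panel the 4 control mice have the lowest Tbx3 values but for rescue mouse 4 and the lowest Znrf3 values but for rescue mouse 3.

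The tested gene most like Slc1a2 was Slc13a3 (r = 0.94), which encodes a dicarboxylate transporter and is itself on the list of other pericentral genes, followed by Gm14097 (r = 0.93) and Ctcflos (r = 0.93). The closest gene to Znrf3 was Cyp2c29 (r = 0.92), a pericentral cytochrome P450, ahead of Gid4 and Gm37063 (both r = 0.91). Tbx3 was closest to Klhl15 and Gm37606 (both r = 0.92) and Sel1l3 (r = 0.90). Glul was closest to the Kupffer cell lectin Clec4f (r = 0.85), to Ces1b (r = 0.83) and to Glns-ps1 (r = 0.83), a glutamine synthetase pseudogene with which it may share reads.

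Axin2 was closest to Trib3 (r = 0.83), Plekha6 (r = 0.81) and Gm18666 (r = 0.80), and Lgr5 to Ccdc171 (r = 0.90), Gm49706 (r = 0.85) and Slc4a4 (r = 0.84). Rnf43 was closest to Phldb2 (r = 0.87), Chac2 (r = 0.85) and Gm38021 (r = 0.82), and Rhbg to Gm8960 (r = 0.83), Mir1934 (r = 0.81) and A230072C01Rik (r = 0.79). Lect2 was closest to Plbd1 (r = 0.92), Gm26287 (r = 0.91) and Oas2 (r = 0.89). These Lect2 values rested on few mice, since r for Plbd1 was 0.48 and for Oas2 0.33 without the 2 mice farthest from the Lect2 median. With the same omission about each member, r was 0.60 for Rhbg with A230072C01Rik, 0.66 for Rnf43 with Chac2 and 0.96 for Znrf3 with Cyp2c29. All the closest genes were picked as the 3 highest of 16377 correlations over 12 mice. Such a search can reach a high r by chance, and no relation between genes is read from it.

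The genes around the members in the pathway were taken from lists of 122 genes, of which 97 were tested. After knockdown 6 of the 97 passed an adjusted p of 0.05 in limma, 5 higher and 1 lower, beside 3.23% of all tested genes. Those 6 were the receptor genes Fzd1, Lrp5 and Ryk, the TCF gene Tcf7l1, the pericentral gene Cyp2c29 and the periportal gene G6pc. In rescue against knockdown 0 of the 97 passed, and in rescue against control 5 passed, all higher, beside 2.15% of all tested genes. The first of these counts was 1 in a fit of the knockdown and control mice alone, and the rescue against control count was 0 with median-of-ratios scaling.

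Of the Wnt and R-spondin ligands and their secretion genes, 8 of 15 had enough expression to be tested, and none passed an adjusted p of 0.05 in any comparison. The most abundant were Wnt5b, between 6.33 and 9.45 TPM over the 12 mice, and Rspo3, the R-spondin of the central vein, between 2.72 and 5.69 TPM. Wnt2 and Wnt9b, the endothelial ligands known from the central vein, were named for that role after their values were known. Wnt2 measured 3.89, 2.17, 2.52 and 2.605 TPM in Ad-Ctrl and 4.84, 3.17, 3.21 and 5.34 TPM in Ad-shmGULL, with overlap of the groups and a log2 fold change of 0.43 (95% interval 0.05 to 0.81, limma adjusted p = 0.191). Wnt9b was near 1 TPM, with a log2 fold change of 0.17 (95% interval -0.24 to 0.57, limma adjusted p = 0.669). The summed level of 11 endothelial markers, none of them at 0, was 184 to 315 TPM in Ad-Ctrl, 298 to 378 TPM in Ad-shmGULL and 294 to 340 TPM in rescue livers, and its part in these levels was not tested.

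Among Wnt receptors and co-receptors, 11 of 16 were tested, and after knockdown 2 were higher and 1 lower at an adjusted p of 0.05. Fzd1, a Frizzled receptor, measured 7.79, 7.39, 6.86 and 7.06 TPM in Ad-Ctrl, 12.3, 13.1, 8.99 and 10.7 TPM in Ad-shmGULL and 13.5, 12.04, 9.90 and 10.9 TPM in rescue livers. It was higher in all 8 livers with the shRNA virus than in any control, with log2 fold changes of 0.56 (limma adjusted p = 0.0320) in knockdown and 0.60 (limma adjusted p = 0.0414) in rescue against control. With median-of-ratios scaling they were 0.47 (limma adjusted p = 0.0368) and 0.41 (limma adjusted p = 0.136). Lrp5, the co-receptor of canonical Wnt signalling, measured 35.6, 34.0, 31.2 and 32.5 TPM in Ad-Ctrl, 43.2, 43.2, 39.9 and 40.2 TPM in Ad-shmGULL and 34.7, 36.2, 31.6 and 33.7 TPM in rescue livers. Knockdown stood above both other groups in every mouse, with a log2 fold change of 0.31 against control (limma adjusted p = 0.0373), which was 0.21 and no longer called with median-of-ratios scaling (limma adjusted p = 0.144). From knockdown to rescue the log2 fold change of Lrp5 was -0.28 with an unadjusted limma P of 0.00171 and an adjusted p of 0.318.

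Ryk, a Wnt-binding receptor related to tyrosine kinases, had the opposite order. It measured 24.7, 22.7, 25.4 and 26.4 TPM in Ad-Ctrl, 20.4, 18.3, 19.3 and 20.7 TPM in Ad-shmGULL and 23.6, 24.0, 26.2 and 27.3 TPM in rescue livers. All knockdown mice lay below all others, with a log2 fold change of -0.32 against control (limma adjusted p = 0.0490). The rescue against knockdown value was 0.35 with an unadjusted limma P of 0.000850 and an adjusted p of 0.309. The 3 receptor calls sat close to the threshold: with 1 mouse left out in turn, the knockdown call of Fzd1 was kept in 5 of 12 fits, that of Lrp5 in 2 of 12 and that of Ryk in 0 of 12. Their log2 fold changes over those fits stayed within 0.49 to 0.65, 0.28 to 0.34 and -0.36 to -0.28. All 3 calls were lost when any 1 of Ad-Ctrl mice 2, 3 and 4, Ad-shmGULL mice 1, 2 and 4 or rescue mouse 2 was left out.

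**Figure D4:**
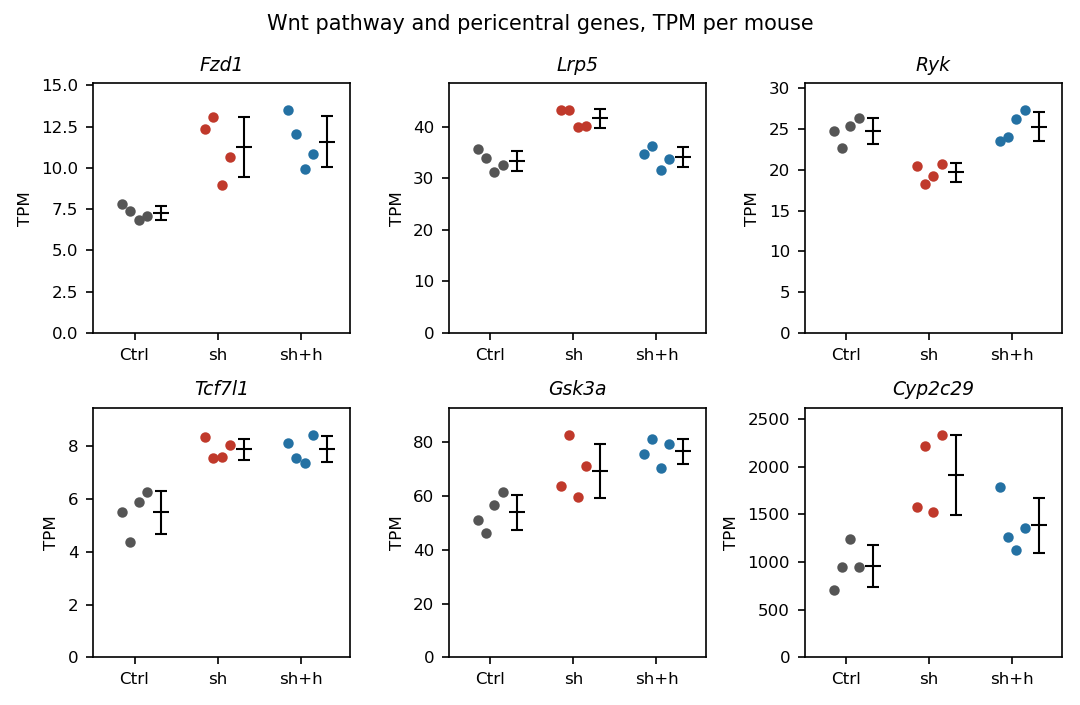
TPM per mouse of 5 Wnt pathway genes and of the pericentral gene Cyp2c29, with linear axes from 0, points for single mice and mean ± SD (n = 4) beside them, where Ctrl, sh and sh+h stand for control, knockdown and rescue. The Ad-shmGULL mice lie above both other groups for Lrp5 and below both for Ryk, whereas Fzd1 and Tcf7l1 are higher than control in both groups that received the shRNA virus.

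Of the destruction complex and β-catenin effector genes, 21 of 22 were tested. Tcf7l1, a mostly repressive TCF factor, measured 5.53, 4.37, 5.89 and 6.26 TPM in Ad-Ctrl, 8.37, 7.55, 7.59 and 8.07 TPM in Ad-shmGULL and 8.15, 7.57, 7.39 and 8.44 TPM in rescue livers. Both groups with the shRNA virus lay above all controls, with log2 fold changes of 0.46 (limma adjusted p = 0.0390 and 0.0478). Both calls were lost with median-of-ratios scaling, at 0.37 (limma adjusted p = 0.0653) in knockdown and 0.28 (limma adjusted p = 0.257) in rescue against control. The knockdown call was kept in 2 of 12 fits with 1 mouse left out and was lost without any 1 of Ad-Ctrl mice 2, 3 and 4, Ad-shmGULL mice 1, 2 and 4 or the rescue mice. Gsk3a, a kinase that marks β-catenin for degradation, was called in rescue against control alone, with a mean of 76.4 ± 4.76 TPM against 53.8 ± 6.61 TPM (SD, n = 4; log2 fold change 0.50, limma adjusted p = 0.0441, or 0.31 and 0.165 with median-of-ratios scaling). Ctnnb1, which encodes β-catenin, had a log2 fold change of 0.18 after knockdown (95% interval 0.02 to 0.34, limma adjusted p = 0.186). Tcf7l2, the main TCF factor of liver, was higher in all 4 knockdown mice than in any control, at 0.24 (95% interval 0.07 to 0.42, limma adjusted p = 0.106). Ctnnb1 and Tcf7l2 were named for their roles after their values were known.

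Of the Wnt inhibitors 7 of 16 were tested, and of the general Wnt target genes 8 of 11. None passed an adjusted p of 0.05 in any comparison. Tle1 and Tle4, which encode corepressors of TCF factors, were the most abundant of the inhibitors and ran from 20.3 to 30.4 TPM and from 11.8 to 17.9 TPM over the 12 mice. For Tle1 all 4 knockdown mice lay below every control and every rescue mouse. Its log2 fold change was -0.24 against control (limma adjusted p = 0.137, exact permutation p = 0.0286) and 0.17 from knockdown to rescue (limma adjusted p = 0.497). Notum, a secreted enzyme that inactivates Wnt ligands, ran from 23.2 to 49.6 TPM and Cd44, an adhesion receptor, from 14.2 to 38.9 TPM. Median log2 fold changes after knockdown were 0.16 for the inhibitors and 0.17 for the general targets.

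All 23 other pericentral hepatocyte genes were tested. After knockdown 1 passed an adjusted p of 0.05, Cyp2c29, which rose from 960.5 ± 220 to 1914 ± 423 TPM (SD, n = 4; log2 fold change 0.996, limma adjusted p = 0.0237). In rescue livers it was at 1385 ± 286 TPM, with a log2 fold change of -0.46 from knockdown (limma adjusted p = 0.446) and of 0.53 from control (limma adjusted p = 0.133). Cyp2c29 belongs to a family of near-identical genes whose reads may be shared, so its own value is uncertain. The call was kept in 8 of 12 fits with 1 mouse left out, and was lost without Ad-Ctrl mouse 2 or 4 or Ad-shmGULL mouse 2 or 4. The median log2 fold change of the 23 genes was -0.12 after knockdown, with 14 of 23 below 0, whereas that of all tested genes was 0.09. Among the well-known members of this zone, named for that role after their values were known, Cyp2e1 had a log2 fold change of -0.12 (95% interval -0.55 to 0.31), Cyp1a2 of -0.00 (-0.28 to 0.28), Oat of -0.47 (-1.10 to 0.16) and Slc13a3 of -0.51 (-1.07 to 0.05), with limma adjusted p values from 0.293 to 0.996. These 4 genes all had estimates below 0, whereas 9 of the 23 lay above 0. By the stated fold and P threshold Cyp2c29 and Cyp3a11 were higher and Ahr was lower. The mean of Cyp3a11 was 1911 TPM in Ad-Ctrl and 3246 TPM in Ad-shmGULL, and that of Ahr 57.4 and 38.9 TPM. Oat and Slc13a3 were lowest in knockdown mice 1 and 2, the same mice in which Slc1a2 was lowest.

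The periportal genes, which mark the opposite end of the lobule, were all tested (19 of 19). G6pc, the last enzyme of glucose output, was called higher after knockdown (log2 fold change 0.93, limma adjusted p = 0.00606) and in rescue against control (0.54, limma adjusted p = 0.0441). From knockdown to rescue its log2 fold change was -0.39, with an unadjusted limma P of 0.00614 and an adjusted p of 0.369. The knockdown call was kept in 12 of 12 fits with 1 mouse left out, and with median-of-ratios scaling (0.83, limma adjusted p = 0.00968). Hsd17b13, a lipid droplet enzyme, was called higher in rescue against control (0.47, limma adjusted p = 0.0426). With median-of-ratios scaling the rescue against control values were 0.34 for G6pc (limma adjusted p = 0.299) and 0.27 for Hsd17b13 (limma adjusted p = 0.202), and neither was called. The median log2 fold change of the periportal genes after knockdown was -0.17, close to the -0.12 of the other pericentral genes, with 13 of 19 below 0. By the stated fold and P threshold 1 of the 19 was higher (G6pc) and 5 were lower (Pck1, Hal, Sds, Pigr and Cdh1). The mean of Pck1, like G6pc a gene of glucose output, was 3917 TPM in Ad-Ctrl and 2355 TPM in Ad-shmGULL. Of the 23 other pericentral genes 2 were higher and 1 lower by that rule, beside 5.35% of all tested genes higher and 2.3% lower. Each of the 5 calls in rescue against control (Fzd1, Tcf7l1, Gsk3a, G6pc and Hsd17b13) was kept in 4 of 12 fits with 1 mouse left out and was lost without any 1 of Ad-Ctrl mice 2, 3 and 4, Ad-shmGULL mouse 4 or the rescue mice. The summed markers of Kupffer, stellate, cholangiocyte, T and NK, and proliferating cells overlapped between all groups.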

How the data were processed

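Liver RNA was made into strand-specific libraries. The submitters' processing notes list fastp 0.23.2, FastQC 0.11.8, HISAT2 2.2.1.0, featureCounts of Subread 2.0 and GRCm38.p6. The authors deposited TPM per gene, which was used unchanged. TPM values carry no depth, so no counting error could be given. The 16378 of 55385 features that averaged 1 TPM or more over the 12 mice were fitted on log2(TPM + 1) with limma 3.58.1 (trend) in R 4.3.3, with 3 group means and no covariate, and Benjamini-Hochberg adjustment over all of them. The fit was tested on simulated data with independent noise for each gene and no shift between mice. That check therefore does not cover the scaling of the TPM values or the weight of single mice. Exact two-sided permutation tests of mean TPM and the plots were made in Python 3.11.15 (matplotlib 3.10.9).

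The members and gene lists were chosen with earlier results of these data known. Named were all 9 members; of each list the genes with an adjusted p under 0.05 in any comparison (at most 4) or otherwise the 2 most abundant; and the 3 genes most correlated with each member. A few genes were added for their known roles. The alternatives tried were testing all genes, testing those averaging 5 TPM or more, a pseudocount of 0.1, median-of-ratios scaling, a replicate block, 2 groups only and each mouse left out.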

Additional observations from a re-analysis of the deposited data

Results flagged for a closer look

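In 27 sets of 4 mice (9 genes in 3 groups), the gap of the highest or lowest mouse to its nearest neighbour was compared with the range of the set. In 2 sets that gap was larger than Dixon's critical share for 4 values, and chance alone flags about 1 in 20 sets. Both concerned Ad-Ctrl mouse 2. Axin2 was at 7.41 TPM in that mouse, above the other 3 controls, with a gap of 0.831 of the range. Lect2 was at 110.4 TPM in it, below the other 3 controls, with a gap of 0.925 of the range.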

How the results depend on the processing

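Over the alternatives, none of the 9 genes was called at an adjusted p of 0.05 except in knockdown against control, where the count of 0 became 1 for genes of at least 5 mean TPM (Tbx3), 1 with the replicate block (Slc1a2, adjusted p = 0.0367) and 0 to 1 with a mouse left out (Tbx3 without rescue mouse 1). Whether the replicate numbers pair the mice is not given by the labels. Over all tested genes the deviations of same-numbered mice correlated at -0.24 to 0.15, and those of differently numbered mice at -0.175 to 0.175. Same-numbered mice were thus no more alike than others over all genes, which cannot decide the pairing for single genes. Slc1a2 rose in replicate order, from mouse 1 to mouse 4, in each group. By fold and P the count of 1 ran from 0 (without knockdown mouse 2) to 2 (without knockdown mouse 3) with a mouse left out, and where it stayed at 1 the gene was Slc1a2 instead of Tbx3 with median-of-ratios scaling and without control mouse 1 or knockdown mouse 4. Of the other listed genes, the 6 called after knockdown became 2 without the filter, 10 at a mean of at least 5 TPM, 1 with 2 groups only and 1 to 10 with a mouse left out. The 5 called in rescue against control became 0 without the filter, 0 with median-of-ratios scaling, 1 with the replicate block, 11 with 2 groups only and 0 to 7 with a mouse left out. With median-of-ratios scaling the sign turned for Glul (-0.087) and Lgr5 (-0.007) after knockdown, Rhbg (-0.013) and Lect2 (-0.042) in rescue against knockdown, and Rnf43 (-0.103) and Znrf3 (-0.023) in rescue against control. Leaving out a mouse moved values across 0 after knockdown for Glul (-0.052 to 0.088), Lgr5 (-0.061 to 0.158), Rhbg (-0.244 to 0.024), Lect2 (-0.315 to 0.119), Cyp2e1 (-0.254 to 0.010) and Cyp1a2 (-0.117 to 0.092). It did so in rescue against knockdown for Lgr5 (-0.23 to 0.057), Rhbg (-0.039 to 0.23), Lect2 (-0.244 to 0.191), Rnf43 (-0.213 to 0.070) and Znrf3 (-0.089 to 0.010), and in rescue against control for Lgr5 (-0.162 to 0.092), Rhbg (-0.106 to 0.072) and Rnf43 (-0.064 to 0.219). The cause was not tested.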
